A study of Homo sapiens with 32 samples.

Results

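The expression of 9 genes around the Wnt pathway was followed in 2 human lung cancer cell lines given a gamma-secretase inhibitor (GSI). They are the secreted inhibitors DKK1, DKK3 and SFRP1, the ligand WNT5A, the nuclear factors LEF1 and TCF7L2, and AXIN2, LBH and TCIM, grouped here as targets and regulators. A gene was taken where its symbol in the array's annotation matched one of these names exactly. This gave 9 of the 19775 genes measured, read by 29 probe sets. The genes were selected on their measured log2 levels and differences in these arrays, seen in earlier results, so the levels and differences of the 9 genes are given as a description.

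The 8 groups were A549 GSI 24 h, A549 vehicle 24 h, A549 GSI 6 h, A549 vehicle 6 h and the same 4 groups of H460a, with 4 arrays each and 32 arrays in all. A549 and H460a are non-small cell lung cancer lines. GSI groups received 2 µM RO4929097, an inhibitor of the protease that releases the Notch intracellular domain, and vehicle groups received its carrier, of unstated composition. Nothing in the labels places the 4 replicates in separate cultures, and the adjusted p then reflects only how far the arrays scatter, which may be technical. Each line is a single line and stands for itself alone.

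In canonical Wnt signalling, a secreted Wnt protein binds a Frizzled receptor and the co-receptor LRP5 or LRP6. This stops a complex built on axin from degrading beta-catenin, which then enters the nucleus and activates genes with TCF or LEF proteins. Many of the activated genes, AXIN2 and DKK1 among them, encode inhibitors of the same pathway. Notch signalling acts through another DNA-binding protein, RBPJ, and HES1 is its best known target.

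Levels are log2 of the deposited array intensity, and a difference of 1 on this scale is a doubling. Array mean intensity was 468 to 496 in A549 vehicle 6 h. It was 496 and 531 in arrays 1 and 2 of A549 GSI 6 h, and 589 and 583 in its arrays 3 and 4, while the other 24 arrays lay between 570 and 613. Differences that involve the A549 6 h arrays are therefore also given after quantile normalization, which gives every array the same distribution of values. A difference is called past the threshold when its adjusted p was under 0.05 in a limma fit over all 19775 genes. The keratins KRT8 and KRT18, markers of epithelial cells, stood at 13.59 and 14.70 in A549 and at 12.94 and 13.85 in H460a. EPCAM, another epithelial marker, was at 5.60 in A549 and 4.76 in H460a, below the median probe set (6.60). CDH1 was at 10.28 in A549 and 4.57 in H460a, and KRT19 at 6.89 in A549 and 13.66 in H460a. Of 5 fibroblast markers, 3 in A549 and 4 in H460a were above the median probe set, as were 3 of 5 leukocyte and endothelial markers in each line, while PTPRC, CDH5 and LUM were below it in both lines. Array 3 of H460a vehicle 6 h had an actin 3' over 5' log2 ratio of 2.19, against 0.14 to 0.42 in the other 31 arrays, and the H460a 6 h values that it changed most are also given without it. The part of this array and of the marker genes in the results was not tested.

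HES1 checked the treatment. At 24 h it had levels of 7.64, 7.74, 7.90 and 7.93 in A549 with GSI, against 9.82, 9.98, 10.09 and 10.05 with vehicle. The groups lay far apart, and HES1 fell by 2.18 ± 0.13 (SE; adjusted p = 1.29e-13, limma, n = 4 each). At 6 h it fell by 1.63 ± 0.13 in A549 (adjusted p = 8.67e-10); after quantile normalization the difference was -1.84. In H460a HES1 averaged 6.15 ± 0.27 with GSI and 6.44 ± 0.18 with vehicle at 24 h (SD, n = 4 each). With vehicle at 6 h it averaged 6.69, and both vehicle levels were near the median probe set (6.60). The A549 vehicle levels averaged 9.99 at 24 h and 9.63 at 6 h. How far the lower starting level limited a fall in H460a was not tested. The H460a difference was -0.29 at 24 h (adjusted p = 0.823) and -0.35 at 6 h (adjusted p = 0.324), neither past the threshold. The fall was larger in A549 than in H460a by 1.89 at 24 h (adjusted p = 4.78e-08) and by 1.29 at 6 h (adjusted p = 0.000299; -1.51 after quantile normalization).

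Of the 9 genes, LBH, read by 1 probe set, fell in A549 at both times. LBH, named for limb bud and heart, encodes a small nuclear cofactor of transcription and is a known target of Wnt and beta-catenin in mammary epithelium. At 24 h its levels were 9.24, 9.36, 9.40 and 9.23 in A549 with GSI, against 10.09, 10.09, 10.26 and 10.10 with vehicle. Every GSI array was below every vehicle array. The means were 9.31 ± 0.087 with GSI and 10.13 ± 0.085 with vehicle (SD, n = 4 each), a difference of -0.83 (95% interval -1.03 to -0.63). GSI cells thus kept 56.3% of the vehicle level.

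At 6 h LBH was at 9.17, 9.25, 9.39 and 9.11 in A549 with GSI, against 10.09, 10.07, 9.97 and 10.01 with vehicle. Again no array of one group reached the other. The difference was -0.81 (95% interval -1.01 to -0.61), and -0.98 after quantile normalization. It was past the threshold without any single array of either group, at both times. In GSI cells its mean was 9.31 ± 0.087 at 24 h and 9.23 ± 0.12 at 6 h.

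In H460a no such fall was seen. At 24 h LBH was at 9.45, 9.46, 9.29 and 9.03 with GSI, against 9.53, 9.48, 9.69 and 9.25 with vehicle. The groups overlapped, with a difference of -0.18 (95% interval -0.38 to 0.02). At 6 h it was at 8.88, 9.16, 9.04 and 9.24 with GSI, against 8.99, 9.00, 8.61 and 8.80 with vehicle, which overlapped too. That difference was 0.23 (95% interval 0.03 to 0.43), not past the threshold, and 0.15 without vehicle array 3, whose 8.61 is the lowest value.

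The difference between the lines was itself estimated in the fit. The GSI difference of LBH in A549 minus that in H460a was -0.65 (95% interval -0.93 to -0.37) at 24 h and -1.04 (95% interval -1.32 to -0.76) at 6 h, both past the threshold. The 6 h value was -1.15 after quantile normalization and -0.96 without vehicle array 3 of H460a. At 24 h this call was lost without array 4 of H460a vehicle (-0.57), the lowest of its group. With each gene read by its brightest probe set, LBH was the 1 of 9 genes past the threshold at each time. Of all genes, 0.637% were past it at 24 h and 0.121% at 6 h. Another probe set of AXIN2, described below, was also past it at 24 h. Since LBH was chosen with these values in view, its call is not evidence about the 9 genes.

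**Figure D1:**
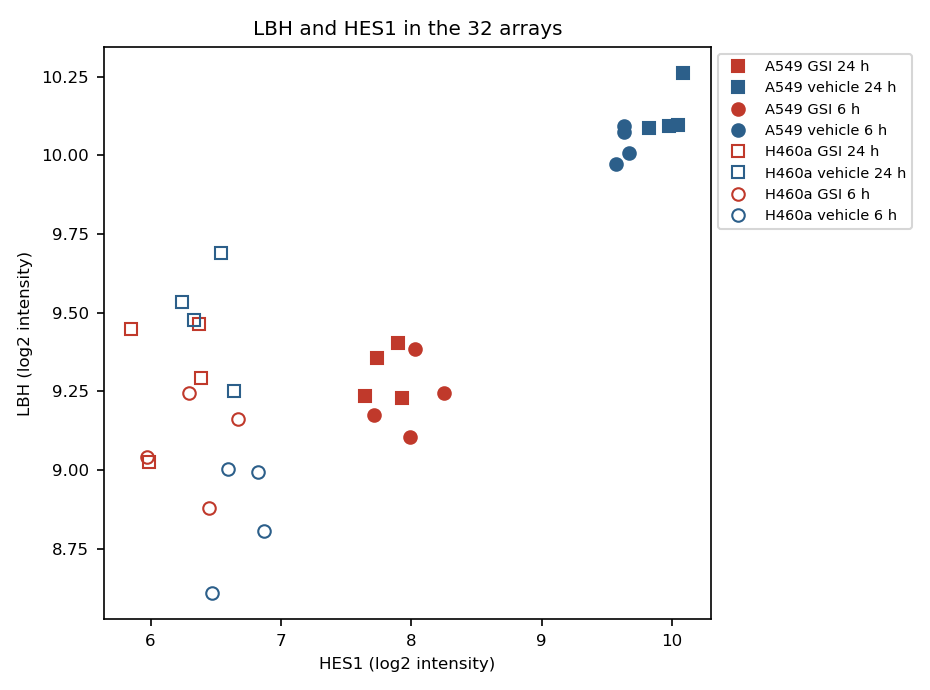
Level of LBH (vertical axis, log2 intensity) against that of HES1 (horizontal axis, log2 intensity) in each of the 32 arrays, coloured by treatment and shaped by line and time. The 8 A549 vehicle arrays stand alone with LBH at 9.97 or above, and the 8 A549 GSI arrays lie in the LBH range of H460a with HES1 lower than in A549 vehicle.

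Promoters are shown for LBH and HES1, which both fell in A549, as 300 bases from 250 before to 50 after the start in RefSeq (GRCh38.p14). The TCF and LEF motif (CTTTGAA or CTTTGAT or CTTTGTA or CTTTGTT) and the RBPJ motif (TGGGAA), were searched on both strands, and capitals mark a match. LBH lies at chr2:30231284-30231583 on the plus strand, and HES1 at chr3:194135898-194136197 on the plus strand.
LBH: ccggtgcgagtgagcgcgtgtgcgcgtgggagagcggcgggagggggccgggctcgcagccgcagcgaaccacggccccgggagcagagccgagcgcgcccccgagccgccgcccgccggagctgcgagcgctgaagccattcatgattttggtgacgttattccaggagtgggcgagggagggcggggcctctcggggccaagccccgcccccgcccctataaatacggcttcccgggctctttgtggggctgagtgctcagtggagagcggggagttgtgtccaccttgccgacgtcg
HES1: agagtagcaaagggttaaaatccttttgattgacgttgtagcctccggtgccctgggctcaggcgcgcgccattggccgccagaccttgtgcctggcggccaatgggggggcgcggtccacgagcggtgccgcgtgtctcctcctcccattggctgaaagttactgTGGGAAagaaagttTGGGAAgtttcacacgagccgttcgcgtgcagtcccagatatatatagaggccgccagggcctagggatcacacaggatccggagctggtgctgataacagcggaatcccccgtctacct
The HES1 stretch held the RBPJ letters at bases 167 to 172 and 181 to 186 of the window, and the LBH stretch held neither motif. Among 35116 promoters of this length, 24.03% held the RBPJ letters and 3.80% held them 2 or more times, while 13.75% held a TCF and LEF motif. DKK1, WNT5A, LEF1, TCF7L2 and LBH, 5 of the 9 genes, were matched to the RefSeq table by symbol, with 8 promoters, of which 2 held a TCF and LEF motif and 2 an RBPJ motif. A match is a description of letters and not a binding site.

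AXIN2 was read by 4 probe sets, which differed in how far they moved. AXIN2 encodes a scaffold of the complex that degrades beta-catenin and is a direct feedback target of canonical Wnt signalling. The brightest probe set, which stands for the gene here, had levels of 7.98, 7.75, 7.84 and 7.91 in A549 with GSI at 24 h, against 8.002, 8.26, 7.99 and 8.33 with vehicle. The groups just failed to overlap. The difference of -0.28 (95% interval -0.47 to -0.08) was not past the threshold.

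The AXIN2 probe set with the largest variance over the arrays had levels of 8.24, 8.42, 8.41 and 8.85 in A549 with GSI at 24 h, against 9.29, 9.29, 9.00 and 9.33 with vehicle. All GSI arrays were below all vehicle arrays. This difference of -0.74 (95% interval -1.01 to -0.47) was past the threshold in a fit over all 41091 probe sets with 1 symbol, and it stayed so without any single array. At 6 h the probe set was at 8.27, 8.04, 8.26 and 8.28 with GSI, against 9.01, 8.45, 8.46 and 8.59 with vehicle. The groups did not overlap, and the difference of -0.41 was not past the threshold. It was past it after quantile normalization (-0.53), without vehicle array 2 (-0.47) and without GSI array 1 (-0.43). The other 2 probe sets differed by -0.20 and -0.16 at 24 h and by -0.23 and -0.20 at 6 h (-0.24 and -0.19 after quantile normalization).

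All 4 AXIN2 probe sets were thus on the lower side in GSI-treated A549 at both times, but they differed in size, from -0.74 to -0.16 at 24 h. The brightest differed by -0.15 at 6 h (-0.23 after quantile normalization). In H460a the brightest differed by 0.05 at 24 h and -0.12 at 6 h. The probe set of largest variance differed there by 0.13 at 24 h and -0.13 at 6 h. Its GSI difference in A549 minus that in H460a was -0.88 at 24 h. With vehicle at 24 h it averaged 5.88 in H460a, below the median probe set (6.60), against 9.22 in A549. How far this low level limited a fall in H460a was not tested. Of the 29 probe sets of the 9 genes, 0 were higher and 2 lower past the threshold in A549 at 24 h, that of LBH and the AXIN2 one of largest variance, where 1.35% of all probe sets were past it.

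TCIM, also called TC1, encodes a small protein that binds the beta-catenin antagonist Chibby and so favours beta-catenin activity. At 24 h it had levels of 10.74, 10.85, 10.91 and 10.89 in A549 with GSI, against 11.12, 11.04, 11.37 and 11.39 with vehicle. The groups did not overlap. The difference of -0.38 (95% interval -0.63 to -0.14) was not past the threshold. At 6 h its levels were 9.57, 9.75, 10.20 and 9.84 with GSI and 10.25, 10.04, 9.83 and 9.80 with vehicle, which overlapped widely, with a difference of -0.14 (-0.30 after quantile normalization). In H460a all 16 arrays lay between 3.34 and 3.90, at the bottom of the scale, so a fall there could not have been seen.

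DKK1 was among the brightest genes in A549. It encodes dickkopf-1, a secreted protein that binds LRP5 and LRP6 and blocks canonical Wnt signalling. At 24 h its levels were 14.16, 14.22, 14.11 and 14.18 in A549 with GSI, against 14.07, 14.13, 14.16 and 14.17 with vehicle. The groups overlapped within a narrow range, and the difference was 0.04 (95% interval -0.21 to 0.29).

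At 6 h DKK1 was at 13.28, 13.48, 13.88 and 13.78 in A549 with GSI, against 13.30, 13.30, 13.19 and 13.20 with vehicle. The 2 high GSI values are from arrays 3 and 4, the brighter arrays of that group. The difference of 0.36 (95% interval 0.11 to 0.61) was not past the threshold. It was 0.05 after quantile normalization, and past the threshold without GSI array 1 (0.46) or GSI array 2 (0.40). In H460a the differences were -0.20 (95% interval -0.45 to 0.05) at 24 h and 0.27 (95% interval 0.02 to 0.52) at 6 h, neither past it. The DKK1 promoter, at chr10:52314031-52314330 on the plus strand, is shown because it held 2 TCF and LEF motifs, at bases 156 to 162 and 175 to 181, as 1.58% of promoters held 2 or more.
DKK1: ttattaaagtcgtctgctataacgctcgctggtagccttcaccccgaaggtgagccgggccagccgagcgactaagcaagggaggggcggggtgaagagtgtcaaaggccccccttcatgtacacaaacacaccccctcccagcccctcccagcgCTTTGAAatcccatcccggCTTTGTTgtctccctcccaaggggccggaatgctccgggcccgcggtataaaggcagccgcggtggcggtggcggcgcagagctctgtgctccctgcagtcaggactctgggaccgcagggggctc

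DKK3, a divergent member of the same family, was at 9.98, 10.07, 9.99 and 9.97 in A549 with GSI at 24 h, against 9.95, 9.98, 9.98 and 10.01 with vehicle. The groups overlapped, with a difference of 0.02 (95% interval -0.22 to 0.26). At 6 h its levels were 9.09, 9.09, 9.34 and 9.19 with GSI and 8.89, 8.93, 8.79 and 9.07 with vehicle, a difference of 0.26 (0.15 after quantile normalization) that was not past the threshold although the arrays did not overlap. SFRP1 binds Wnt proteins through a domain like that of Frizzled. It differed by -0.10 (95% interval -0.39 to 0.20) at 24 h and by 0.14 (95% interval -0.15 to 0.44) at 6 h in A549. The 6 h value was -0.04 after quantile normalization, so its sign is not settled. In H460a the brightest probe sets of DKK3 and SFRP1 differed by -0.17 to -0.06, and their other probe sets by -0.15 to 0.30, none past the threshold. Without vehicle array 3, the SFRP1 value at 6 h was 0.02 in place of -0.16.

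WNT5A, a ligand that acts mainly through beta-catenin-independent routes, was at 7.25, 7.29, 7.51 and 7.26 in A549 with GSI at 24 h, against 7.58, 7.57, 7.71 and 7.73 with vehicle. No GSI array reached the vehicle arrays. The difference was -0.32 (95% interval -0.63 to -0.01), with -0.31 in the second probe set, and neither was past the threshold. At 6 h its levels were 7.29, 7.36, 7.83 and 7.91 with GSI, against 7.61, 7.41, 7.23 and 7.18 with vehicle. The groups overlapped, with a difference of 0.24 in one probe set (0.23 after quantile normalization) and -0.02 in the other (0.00024), so the sign at 6 h is not settled. In H460a the differences were -0.15 at 24 h and -0.09 at 6 h in the first probe set, and 0.01 and 0.11 in the second, none past the threshold. Without vehicle array 3 the first was 0.01 at 6 h.

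LEF1 and TCF7L2 are HMG-box proteins that carry beta-catenin to DNA. LEF1 was near the median probe set in every group, with means between 6.48 and 6.98. In A549 at 24 h it was at 6.56, 6.54, 6.37 and 6.44 with GSI, against 6.52, 6.65, 6.72 and 6.70 with vehicle. These overlapped, and the difference of -0.17 (95% interval -0.33 to -0.01) was not past the threshold. The other 2 LEF1 probe sets had means between 3.98 and 5.14, dimmer than most, and differed by -0.04 and 0.10 there.

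The brightest TCF7L2 probe set, which stands for the gene, was higher in GSI-treated A549 at 6 h on the deposited scale. Its levels were 11.10, 11.12, 11.28 and 11.32 with GSI, against 11.01, 10.91, 10.77 and 11.02 with vehicle. The groups did not overlap. The difference of 0.28 (95% interval 0.13 to 0.43) was past the threshold, but it was 0.10 and not past it after quantile normalization. It also lost the threshold without vehicle array 3 (0.23), GSI array 3 (0.25) or GSI array 4 (0.24). Of its 7 probe sets, the one with the largest variance had 9.16, 9.17, 9.76 and 9.77 with GSI and 9.08, 8.87, 8.50 and 8.59 with vehicle. Its difference of 0.70 was past the threshold (0.62 after quantile normalization), and was 0.40 and not past it without GSI arrays 3 and 4. It was not past it either without vehicle array 3 (0.62), GSI array 3 (0.60) or GSI array 4 (0.60). The remaining TCF7L2 probe sets differed by -0.02 to 0.27 at 6 h (-0.01 to 0.12 after quantile normalization), none past the threshold. At 24 h TCF7L2 differed by -0.06 (95% interval -0.21 to 0.09).

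In A549 at 24 h, 0 of the 9 genes were higher and 1 was lower past the threshold, LBH, where 2.21% of all genes were past it. Read by the brightest probe sets, 7 of the 9 differences were below 0. The median of the 9 was -0.17, that of LEF1, against 0.0070 for all genes. Single probe sets ran from -0.17 to 0.10 for LEF1 and from -0.21 to 0.17 for TCF7L2. The 9 genes were selected on such differences, so this median is a description only. In 4 of the 9 genes, LBH, AXIN2, TCIM and WNT5A, the GSI arrays were all lower than the vehicle arrays, as in 5.14% of all genes. In A549 at 6 h, 1 gene was higher (TCF7L2) and 1 lower (LBH), where 13.1% of all genes were past the threshold. After quantile normalization LBH alone was past it, with 2.82% of all genes. The arrays were separate and higher in 2 of the 9 genes, DKK3 and TCF7L2, as in 9.51% of all genes, and separate and lower in LBH, as in 2.96%.

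In H460a at 24 h, 0 of the 9 genes were past the threshold in limma, and 0 had an unadjusted p under 0.05, where 0.00506% of all genes were past the threshold. In H460a at 6 h, 0 were past it, 2 had an unadjusted p under 0.05, and 0.0961% of all genes were past it. The percentages for all genes are given as background, and nothing about the 9 genes is drawn from them.

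**Figure D2:**
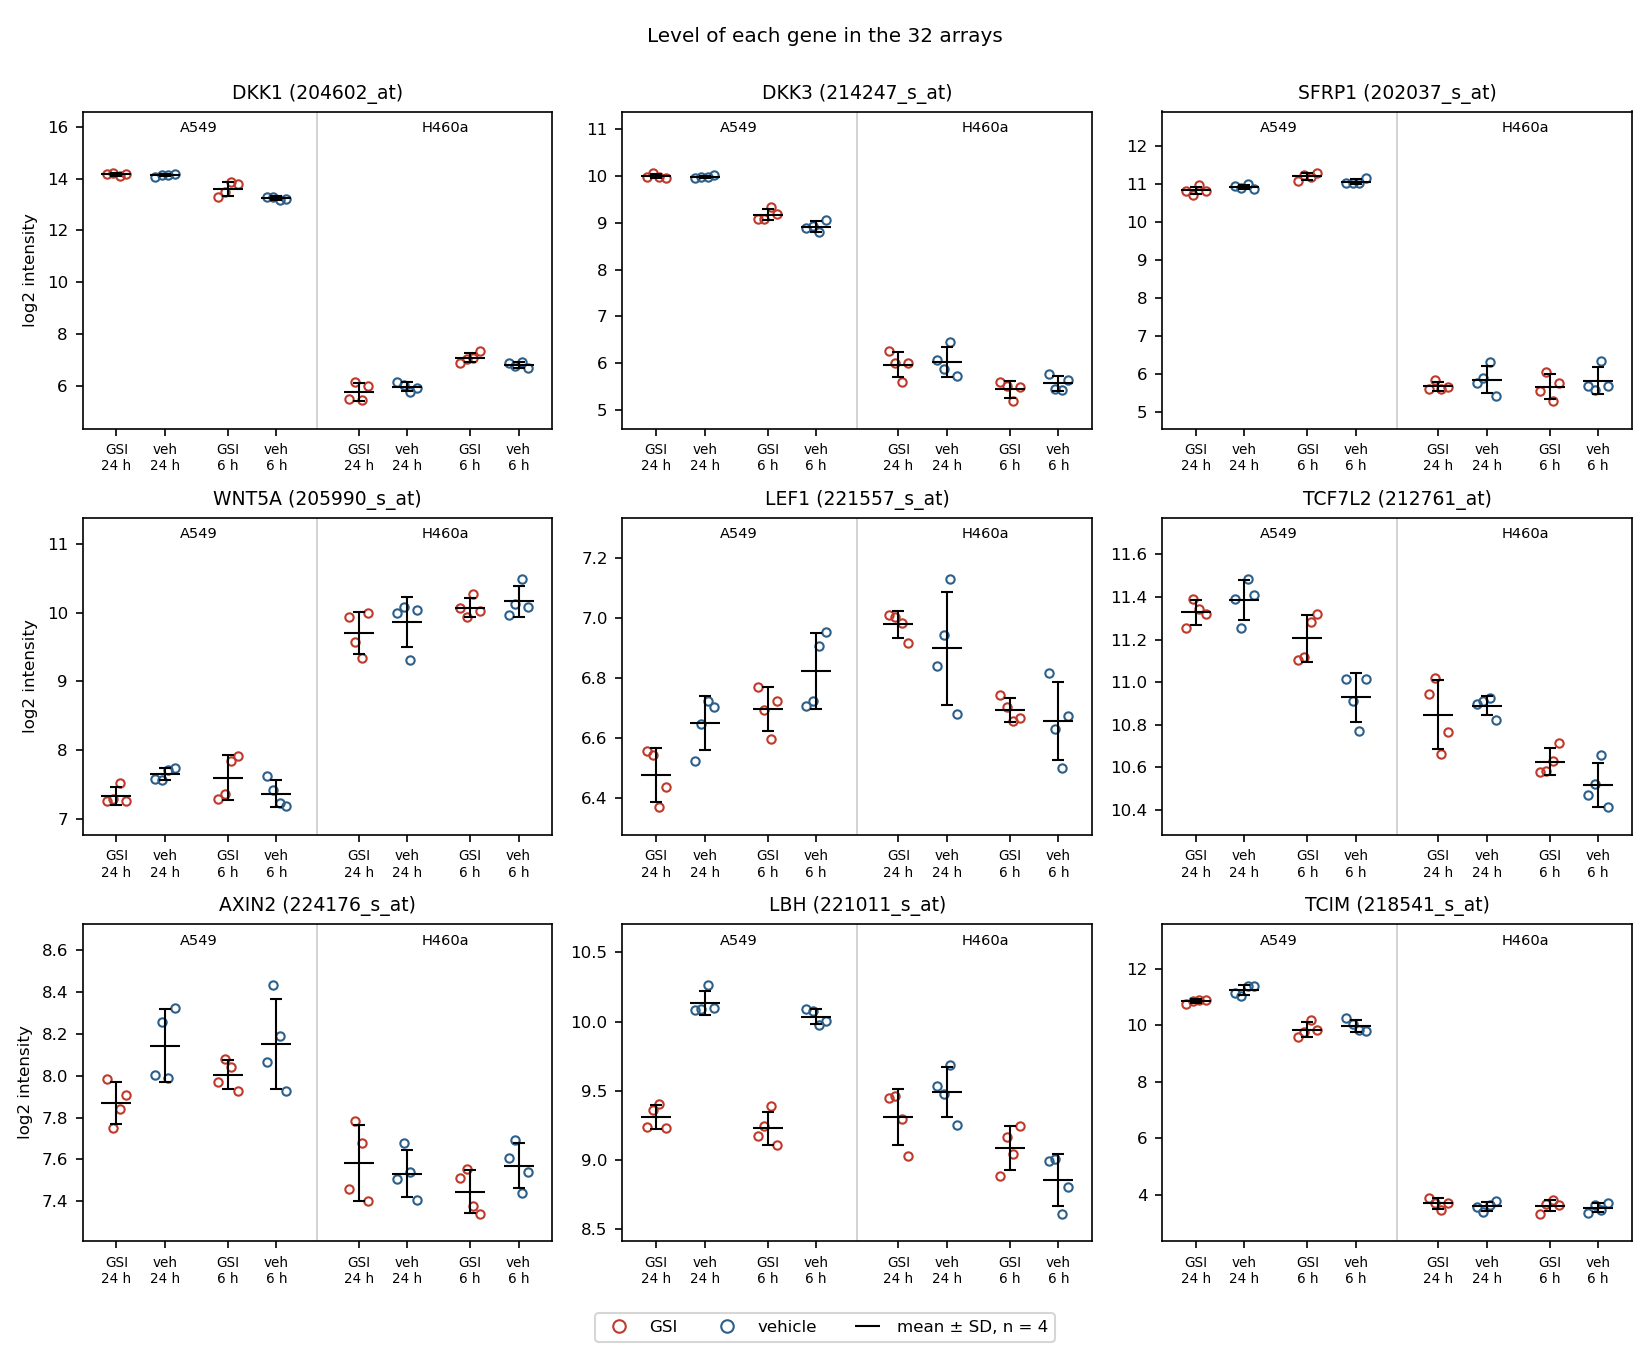
Log2 intensity of the 9 genes in every array, with mean ± SD (n = 4) for each of the 8 groups of line, treatment and time (veh, vehicle). LBH shows the separation of GSI from vehicle in A549 at both times, and DKK1, DKK3, SFRP1 and TCIM stand far higher in A549 than in H460a.

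**Figure D3:**
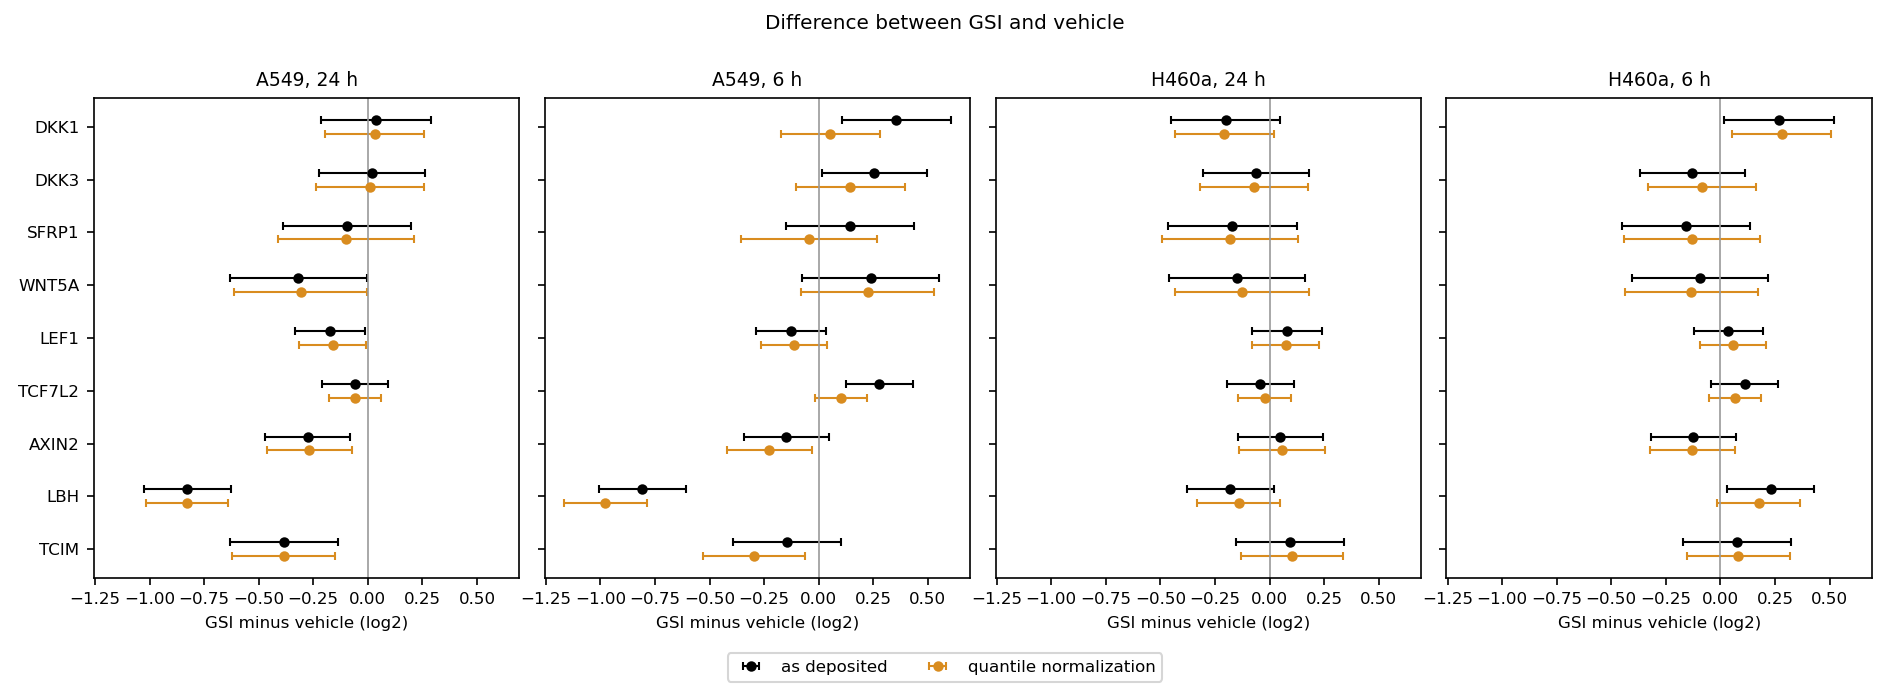
GSI minus vehicle (horizontal axis, log2) for the 9 genes in A549 and H460a at 24 h and 6 h, with 95% intervals, as deposited (black) and after quantile normalization (orange). LBH in A549, at -0.83 at 24 h and -0.81 at 6 h, lies apart from the other genes, and the A549 6 h values of DKK1 and TCF7L2 move toward 0 with quantile normalization.

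**Figure D4:**
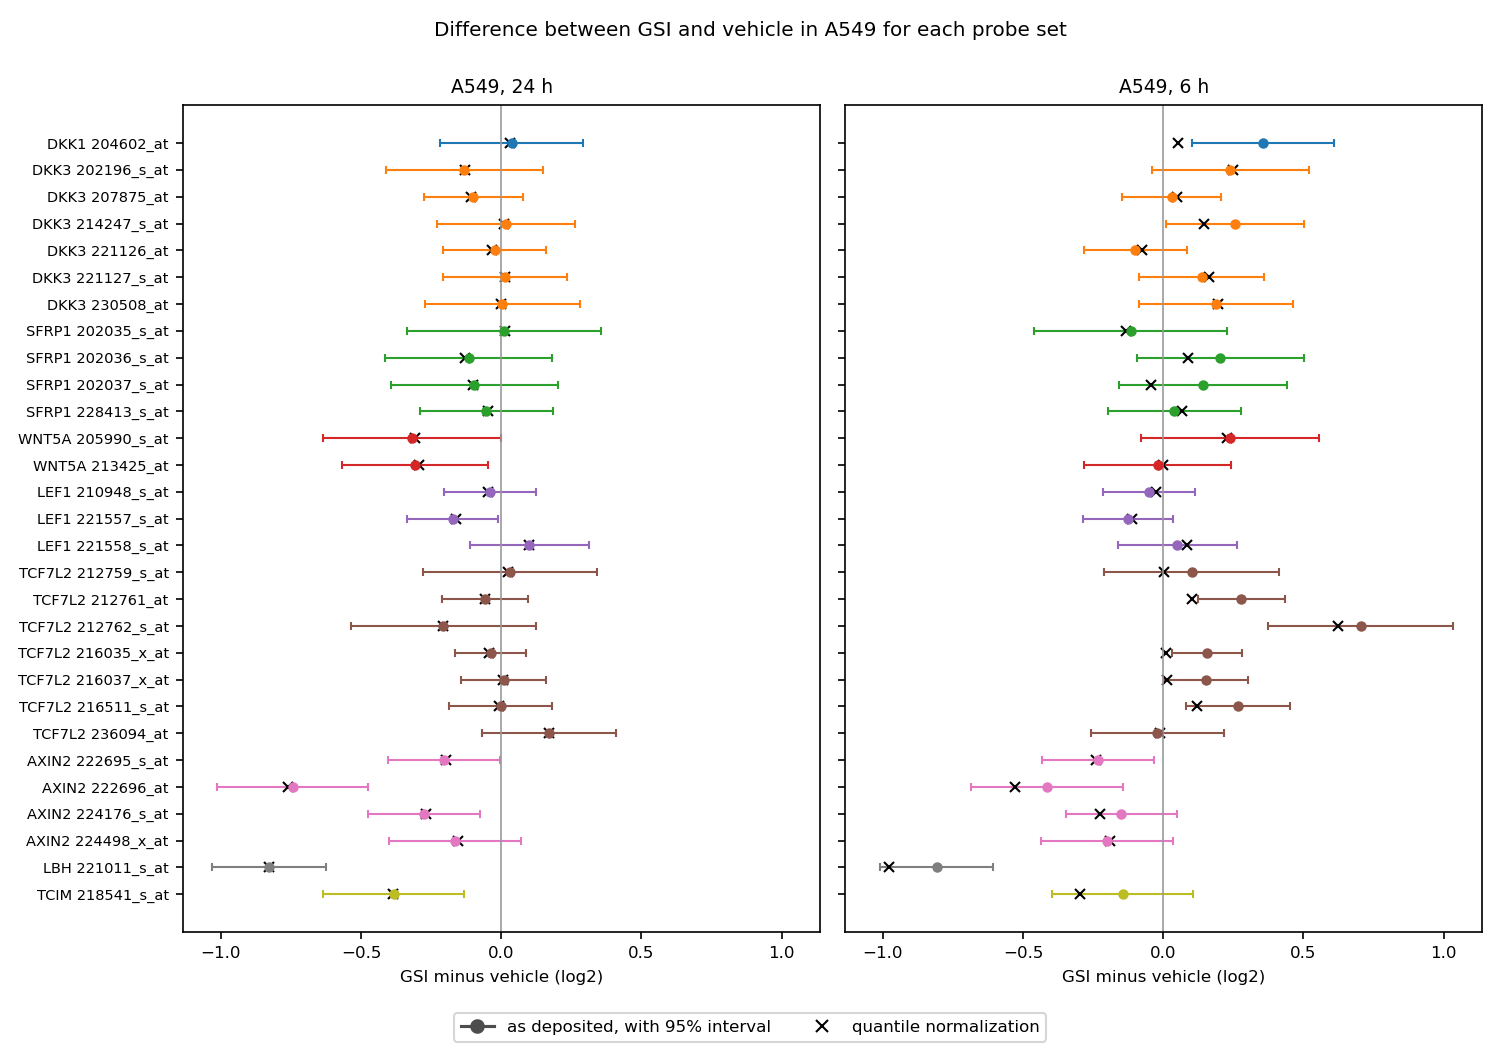
GSI minus vehicle in A549 (horizontal axis, log2) for each of the 29 probe sets at 24 h and 6 h, with 95% intervals and quantile-normalized values as crosses. The 4 AXIN2 probe sets lie below 0 at both times, from -0.74 to -0.16 at 24 h, and the TCF7L2 probe set of largest variance stands at 0.70 at 6 h.

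Other genes of the pathway were taken from a list written from general knowledge of ligands, receptors, inhibitors, signal transducers, nuclear factors and targets, and not by how they moved. The list was written with earlier results of these data known. Of its 106 genes, 99 were measured. In A549 at 24 h, 0 were higher and 3 lower past the threshold, and all 3 were among the 22 targets and feedback regulators. The median over the 99 was -0.01 and 18 had an unadjusted p under 0.05.

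SOX4, an SRY-related factor, averaged 11.93 ± 0.010 in A549 with GSI at 24 h and 12.32 ± 0.012 with vehicle (SD, n = 4 each). Its arrays did not overlap, and it fell by 0.38 ± 0.093 (SE; adjusted p = 0.0165, limma). TNFRSF19, a receptor of the tumour necrosis factor family, averaged 7.10 ± 0.21 with GSI and 7.57 ± 0.19 with vehicle, and fell by 0.46 (adjusted p = 0.0245). SP5, a zinc finger factor induced by beta-catenin, was dim at 5.51 ± 0.15 with GSI and 5.87 ± 0.23 with vehicle, and fell by 0.37 (adjusted p = 0.0311). The arrays of TNFRSF19 and SP5 overlapped. SOX4 kept its call without any single array, while TNFRSF19 and SP5 each kept theirs in 3 of 8 such fits. The TNFRSF19 call was lost without vehicle array 2, 3 or 4 or GSI array 1 or 4 (-0.45 to -0.40). The SP5 call was lost without vehicle array 2 or 4 or GSI array 1, 2 or 4 (-0.37 to -0.26).

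In A549 at 6 h, 9 of the 99 were higher and 1 lower past the threshold, and after quantile normalization 0 were higher and 1 lower. The higher ones named here by rule were ZNRF3, which removes Frizzled receptors (0.41, adjusted p = 0.00744, limma), CD44 (0.40, adjusted p = 0.00733), the R-spondin receptor LGR4 (0.38, adjusted p = 0.0212) and the homeobox gene MSX1 (0.34, adjusted p = 0.0398). After quantile normalization these were 0.27 for ZNRF3, 0.12 for CD44, 0.19 for LGR4 and 0.29 for MSX1, none past the threshold. AXIN1 averaged 9.05 ± 0.060 with GSI and 9.22 ± 0.017 with vehicle. It fell by 0.17 (adjusted p = 0.0297; lost without any array but vehicle array 4 or GSI array 2), and by 0.30 after quantile normalization (adjusted p = 0.00212). Without GSI array 3 or without GSI array 4, 0 of the 99 were past the threshold at 6 h.

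In H460a at 24 h, 0 of the 99 were past the threshold in limma and 4 had an unadjusted p under 0.05. At 6 h the Frizzled receptor gene FZD2 alone was past it, averaging 8.04 ± 0.077 with GSI and 7.69 ± 0.16 with vehicle. It rose by 0.35 (adjusted p = 0.0295), without overlap between the arrays. The call was lost without vehicle array 2 or 4 or GSI array 2, 3 or 4 (0.30 to 0.36).

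The lines differed in most of the 9 genes. In vehicle, 7 were higher and 1 lower in A549 than in H460a past the threshold, where 56.7% of all genes were past it in this comparison. DKK1 was 159-fold higher in A549 (difference 7.31, 95% interval 7.13 to 7.49), SFRP1 35.9-fold (5.17) and DKK3 12.6-fold (3.65). These are folds of the brightest probe set, and the H460a levels were near or below the median probe set. With the mean of all probe sets the difference was 2.70 for SFRP1 and 1.61 for DKK3. Single probe sets ran from -0.02 to 5.17 for SFRP1 and from -0.01 to 3.65 for DKK3. TCIM was at least 130-fold higher (7.03), a lower limit because H460a was at the bottom of the scale.

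LBH was 1.89-fold higher in A549 vehicle (0.92) and AXIN2 1.51-fold (0.60). For the AXIN2 probe set of largest variance the difference was 3.04. WNT5A was the gene that was lower in A549, by 5.71-fold (-2.51, 95% interval -2.73 to -2.29). Its second probe set gave -2.69. LEF1 did not differ past the threshold (-0.04, 95% interval -0.15 to 0.07). TCF7L2 was 1.37-fold higher in A549 (0.46), and -0.15 in the probe set with the largest variance, so its direction depends on the probe set. After quantile normalization the differences were 7.49 for DKK1, 5.28 for SFRP1, 3.72 for DKK3, 7.12 for TCIM, 1.03 for LBH, 0.61 for AXIN2, 0.62 for TCF7L2, -2.48 for WNT5A and -0.07 for LEF1.

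Culture time also moved the genes in vehicle. At 24 h against 6 h in A549, 4 of the 9 were higher and 0 lower past the threshold (limma; 5 had an unadjusted p under 0.05), where 44.2% of all genes were past it. TCIM was higher by 1.25 (0.98 after quantile normalization), DKK3 by 1.06 (0.86) and DKK1 by 0.88 (0.39). TCF7L2 was higher by 0.46 as deposited, but by 0.14 and not past the threshold after quantile normalization. Single DKK3 probe sets ran from -0.14 to 1.23 (-0.10 to 1.20 after quantile normalization). Those of TCF7L2 ran from -0.30 to 0.84 (-0.32 to 0.65). The AXIN2 probe set of largest variance was higher by 0.60 (0.43 after quantile normalization), past the threshold either way. The brightest AXIN2 probe set was at -0.01 (-0.15) and the others at -0.10 (-0.09) and -0.20 (-0.16), none past it. The probe set of largest variance averaged 8.63 at 6 h and 9.22 at 24 h with vehicle, and 8.21 and 8.48 with GSI. The part of this vehicle rise in its GSI difference at 24 h was not tested. SFRP1 differed by -0.13, and by -0.46 after quantile normalization, where it was past the threshold. LBH in A549 vehicle differed by 0.10, or -0.17 after quantile normalization, and neither was past it.

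In H460a at 24 h against 6 h, 4 were higher and 1 lower, where 30.4% of all genes were past the threshold. LBH was higher by 0.64 (95% interval 0.44 to 0.83; 0.55 without array 3 at 6 h), with means of 9.49 ± 0.18 at 24 h and 8.85 ± 0.19 at 6 h. DKK3 was higher by 0.46, TCF7L2 by 0.37 and LEF1 by 0.24, each in its brightest probe set. The other probe sets ran from -0.06 to 0.19 for DKK3 and were at -0.06 and -0.01 for LEF1, none past the threshold. The other TCF7L2 probe sets were at -0.41, -0.07, 0.30, 0.32, 0.40 and 0.46, all but that at -0.07 past it. LEF1 was not past the threshold without array 3 at 24 h (0.17) or array 3 at 6 h (0.19). DKK1 was lower, at 6.14, 6.02, 5.73 and 5.91 at 24 h, against 6.86, 6.76, 6.93 and 6.68 at 6 h. These arrays did not overlap, and the difference of -0.86 was opposite in sign to that in A549.

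The change with time differed between the lines past the threshold in 6 of the 9 genes, where 35.5% of all genes were past it. A549 minus H460a, it was 1.74 for DKK1, 1.19 for TCIM, 0.60 for DKK3 and 0.59 for WNT5A, and -0.41 for LEF1 and -0.54 for LBH. After quantile normalization these were 1.26 for DKK1, 0.91 for TCIM, 0.39 for DKK3, 0.55 for WNT5A, -0.37 for LEF1 and -0.79 for LBH. DKK3 was then not past the threshold, while TCF7L2, at 0.08 as deposited, was past it at -0.26, with the sign turned. WNT5A lost the threshold without array 3 or 4 of A549 at either time, or array 3 of H460a at either time (0.41 to 0.57). TCIM in H460a, being at the bottom of the scale, could not have shown a fall. The time changes and the GSI differences share the vehicle arrays, and the values are given side by side only.

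**Figure D5:**
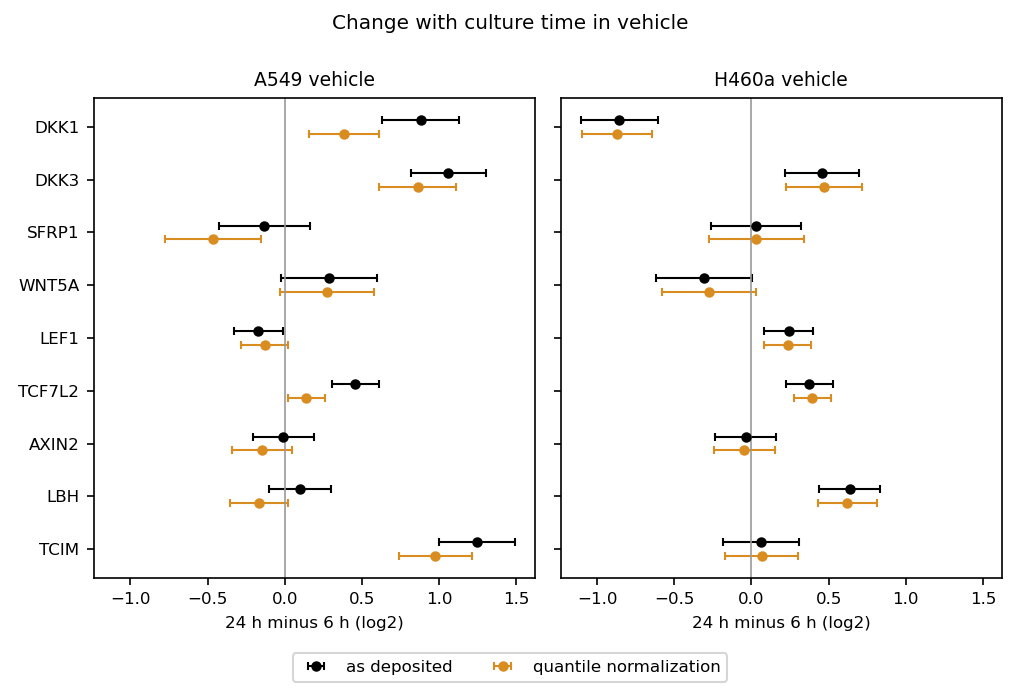
Vehicle at 24 h minus vehicle at 6 h (horizontal axis, log2) for the 9 genes in A549 and H460a, with 95% intervals, as deposited (black) and after quantile normalization (orange). DKK1 lies on opposite sides of 0, at 0.88 in A549 and -0.86 in H460a, and LBH stands at 0.64 in H460a and 0.10 in A549.

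The genes most alike to LBH, DKK1 and AXIN2 were sought by Pearson correlation over the 32 arrays after the mean of each line was taken out, among 9887 genes at or above the median level. For LBH these were JUNB (0.86), JAG2 (0.80), GADD45B (0.79), HEY1 (0.74) and HES1 (0.72). For DKK1 they were SRP19 (0.95), TRMT6 (0.94), TIMM17A (0.94), APTX (0.93) and SLC30A1 (0.93). For AXIN2 they were APC2 (0.68), FHL3 (0.61), PRB3 (0.56), HES1 (0.55) and SULT2B1 (0.54). The arrays share group, brightness and probe set scale, so these values describe likeness only.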

How the data were processed

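RNA of A549 and H460a was measured on 32 Affymetrix arrays of 54675 probe sets. The values are intensities that the authors made with RMA, per the submitters' processing notes, and deposited on a linear scale, as the values themselves show. The version of RMA is unknown here. The deposited arrays did not share the same distribution of values, with means from 468 to 613 and log2 medians from 6.56 to 6.67. Intensities were converted to log2 here, from the deposited values, without further scaling. Control probe sets (62), those with several symbols (1801) and those with no symbol (11721) were left out. The other 41091 stand for 19775 genes, each by its probe set with the highest mean. Symbols are those of the platform annotation, 41037 gene ids matched the RefSeq table, and no symbol needed an update.

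A model with 1 mean per group was fitted over all 32 arrays with limma 3.58.1 (lmFit, eBayes) in R 4.3.3. Benjamini-Hochberg adjustment ran over all genes, or over all probe sets for single probe sets, with 0.05 as the threshold. The median SE of a difference was 0.087, so precision is limited by the number of arrays. The fit was tested on simulated data. The 9 genes were chosen with earlier results of these data known, so no p-value is given for any single one of them, only counts. The lists were also written with those results known. That of the other pathway genes was not chosen by how they moved, but its adjusted p-values do not come from a blind choice. All 9 are named throughout, with HES1, up to 4 other pathway genes per direction past the threshold, and the 5 genes most alike to LBH, DKK1 and AXIN2. Alternatives covered the scaling, the arrays fitted, the variance model, array weights, the probe set for a gene, a filter on dim genes, a difference of at least 0.58, a replicate block, and arrays left out. Promoters were searched in Python 3.11.15 with pandas 2.3.3, and figures drawn with matplotlib 3.10.9.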

Additional observations from a re-analysis of the deposited data

Results flagged for a closer look

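Single arrays stood apart in 5 of the 72 groups of 4 arrays (9 genes in 8 groups), by a gap to the nearest array above Dixon's 95% critical value. Chance gives about 1 such group in 20. SFRP1 was highest at 11.17 in array 4 of A549 vehicle 6 h, and at 6.34 in array 3 of H460a vehicle 6 h, the array with an actin 3' over 5' log2 ratio of 2.19. WNT5A was highest at 7.51 in array 3 of A549 GSI 24 h, and lowest at 9.32 in array 3 of H460a vehicle 24 h. LBH was highest at 10.26 in array 3 of A549 vehicle 24 h.

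The GSI difference of LBH in A549 minus that in H460a was -0.65 at 24 h and -1.04 at 6 h in the fit, both past the threshold. LBH was chosen with these values in view, and at 24 h the call was lost without array 4 of H460a vehicle (-0.57). The change from culture time in vehicle also differed between the lines by the same kind of contrast. A549 minus H460a, this was 1.74 for DKK1, 1.19 for TCIM, 0.60 for DKK3, 0.59 for WNT5A, -0.41 for LEF1 and -0.54 for LBH. These values rest on the A549 vehicle 6 h arrays, which were dimmer than the rest, and the part of brightness in them was not tested. After quantile normalization they were 1.26, 0.91, 0.39, 0.55, -0.37 and -0.79 in the same order, with DKK3 no longer past the threshold and TCF7L2 past it at -0.26.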

How the results depend on the processing

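Of 1006 differences of the 9 genes under another setting, 43 turned sign, of which 42 were not past the threshold as reported. The other 1 is TCF7L2 in A549 against H460a, -0.15 with the probe set of largest variance. Signs turned in 24 of the 90 differences under some setting. Part of the 1006 could not turn, because several settings leave a difference of group means unchanged. These are only the arrays of the comparison, each line alone, the variance model, the filter on dim genes and a difference of at least 0.58. The probe set settings could not turn DKK1, LBH or TCIM either, with 1 probe set each. The 43 of 1006 is therefore not a measure of stability. The LBH fall in A549 stayed past the threshold under every setting run. LBH has 1 probe set, so the settings that change the probe set for a gene could not alter its difference. Calls of HES1 and the other named genes were kept in 92 of 137 values under another setting and lost in 45. HES1 in A549 kept its call in 12 of 12 values at 24 h and 13 of 13 at 6 h. All 45 losses were thus of the other named genes. TCIM and LEF1 are below the median level and have no value under the filter on dim genes. The cause of the changes below was not tested.

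Among the 9 genes in A549 at 24 h, 1 was past the threshold as reported, 3 with only the arrays of the comparison, 3 with array weights, 2 with the mean of all probe sets and 2 with the probe set of largest variance. At 6 h 2 were, against 1 with either quantile normalization (all arrays, or each line apart), 1 with only the arrays of the comparison, 4 with each line fitted alone, 1 with a difference of at least 0.58, and 1 without A549 GSI 6 h arrays 3 and 4. For time in H460a, 5 became 2 with the mean of all probe sets and 2 with a difference of at least 0.58. For the GSI difference of A549 minus H460a at 24 h, 1 became 2 with the mean of all probe sets and 2 with the probe set of largest variance. AXIN2 was the added gene in both.

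Among the 99 other pathway genes in A549 at 24 h, 3 became 5 with either quantile normalization, 1 with each line alone, 11 with array weights, 0 with the replicate block, 5 with the probe set of largest variance and 0 with a difference of at least 0.58. At 6 h 10 became 1 with either quantile normalization, 0 with only the arrays of the comparison, 4 with the replicate block, 16 with genes at or above the median, 0 with a difference of at least 0.58 and 0 without arrays 3 and 4. In H460a at 6 h 1 became 0 with only the arrays of the comparison, each line alone, the replicate block, the mean of all probe sets, or a difference of at least 0.58.

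Leaving out 1 array at a time gave, for the 9 genes, counts of 1 to 1 in A549 at 24 h, 1 to 3 at 6 h, 0 to 0 in H460a at either time, 8 to 8 between lines, 4 to 5 for time in either line, 5 to 6 for its difference between lines, and 0 to 1 at 24 h and 1 to 1 at 6 h for the GSI difference between lines. For the 99 genes it gave 1 to 3 in A549 at 24 h, 0 to 19 at 6 h, 0 to 0 in H460a at 24 h and 0 to 1 at 6 h. In A549 at 24 h the count was 1 without vehicle array 2, vehicle array 4 or GSI array 4. In A549 at 6 h it was 0 without GSI array 3 or 4, 2 without vehicle array 3, 4 without vehicle array 4, 6 without vehicle array 1 and 19 without GSI array 1.

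Same-numbered arrays did not deviate together in every comparison. Their correlations ran from -0.35 to 0.32, and 6 of 16 correlated best with their own number. In A549 at 24 h they ran from -0.06 to 0.32, against -0.24 to 0.08 for different numbers. In A549 at 6 h they ran from -0.35 to -0.00084, against -0.27 to 0.34. In H460a the highest value was between different numbers at both times. The numbers were not taken as pairs. Whether the A549 24 h arrays were paired was not tested, and the replicate block removed the calls of the other pathway genes there. The 4 arrays per group and the dimness of TCIM in H460a limit what could be seen.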
